A study of Mus musculus with 15 samples.

Results

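Transcripts of huntingtin, its direct partners and the Bdnf axis were followed in mouse eyes. The set comprised 10 genes of the 22180 measured, chosen by name: Htt, its binding partners Hap1, Hip1 and the related Hip1r, the dynactin subunit Dctn1, the repressor gene Rest, the neurotrophin gene Bdnf, its receptor gene Ntrk2, the coactivator gene Ppargc1a and the small G protein gene Rasd2. Each was read by 1 probe set.

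Whole eyeballs were profiled on 15 Affymetrix Mouse Gene 2.1 ST arrays, and values are log2 expression values made by Robust Multiarray Average (RMA). The groups were wild type (WT) at 6 months of age (n = 4), R6/1 at the symptomatic stage of 6 months (n = 3), WT at 9 weeks (n = 4) and R6/2 at the symptomatic stage of 9 weeks (n = 4). The WT mice were C57BL/6J littermates. Both R6 lines carry, beside their own intact Htt alleles, a transgene with the first exon of human HTT and an expanded CAG repeat behind the human HTT promoter. The repeat counted 131 ± 3.1 (SD) in R6/1 and 162 ± 2.8 (SD) in R6/2 mice. R6 mice therefore model a short fragment, not full-length mutant huntingtin, and whether the mouse Htt probe set also reads the human transgene was not tested. The methods state that mouse RNA was pooled to make the 15 samples, and p-values measure only the spread between these pools. In bulk samples, fewer cells of a type and less RNA per cell cannot be told apart.

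The arrays held eye tissue as labelled, since the WT arrays of both ages read 10.63 to 11.17 for the rod gene Gnat1, 10.80 to 11.33 for the lens gene Cryaa and 9.54 to 10.56 for the corneal gene Krt12. Some arrays stood apart. The array labelled WT 6 months replicate 4 went against its label, since the cone opsin gene Opn1sw read 3.48 on it, against 7.46 to 7.84 on WT replicates 1 to 3 and 2.51 to 3.01 on the R6/1 arrays. The study's methods also count 1 WT array fewer and 1 R6/1 array more at this age than the labels do. The R6/1 results of the members are therefore given as labelled and without that array. The interquartile range of all 41345 probe sets was narrowest on WT 6 months replicate 3 (2.17) and R6/1 6 months replicate 3 (2.26). WT 9 weeks replicate 3 (2.43) followed, and the other 12 arrays spanned 2.47 to 2.61. The mean of 10 lacrimal and Harderian gland markers, genes of glands that adjoin the eyeball, was 6.19 and 6.16 on WT 9 weeks replicates 2 and 4, against 3.59 to 5.14 on all other arrays. The results of the members at 9 weeks are given with and without this pair.

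Huntingtin is a large scaffold protein that carries the polyglutamine tract expanded in Huntington's disease. With HAP1 it ties vesicles, among them those loaded with BDNF, to dynein, dynactin and kinesin. In its wild type form it also holds the repressor REST in the cytoplasm, and so favours transcription of BDNF and other neuronal genes. BDNF acts through the receptor tyrosine kinase TrkB, encoded by Ntrk2, and supports neurons of the striatum and of the retina. PGC-1alpha, the product of Ppargc1a, switches on mitochondrial genes, and Rhes, the product of Rasd2, is a striatum-enriched G protein that binds mutant huntingtin and promotes its SUMO modification.

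The start windows of Htt and Bdnf are printed because each holds a match to the cAMP response element, the site of the transcription factor CREB. RefSeq windows (GRCm38.p6) of 250 bases before to 50 bases after the start were on hand for 9 of the 10 genes, 18 windows in all, of which 7 belonged to Bdnf with its many first exons. The Htt window, chr5:34761490-34761789 on the plus strand, held the palindromic cAMP response element TGACGTCA, which begins at -14 from the start site and is set in capitals. A Bdnf window, chr2:109692186-109692485 on the plus strand, held TCACGTCA, a form of this element known to bind CREB at an activity-dependent Bdnf promoter, beginning at -38 and also in capitals.
Htt: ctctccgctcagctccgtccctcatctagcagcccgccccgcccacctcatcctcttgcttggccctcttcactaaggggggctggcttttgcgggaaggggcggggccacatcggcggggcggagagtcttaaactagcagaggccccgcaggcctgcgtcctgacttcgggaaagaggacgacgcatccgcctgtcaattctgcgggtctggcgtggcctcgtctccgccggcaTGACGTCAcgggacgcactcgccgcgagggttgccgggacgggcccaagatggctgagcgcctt
Bdnf: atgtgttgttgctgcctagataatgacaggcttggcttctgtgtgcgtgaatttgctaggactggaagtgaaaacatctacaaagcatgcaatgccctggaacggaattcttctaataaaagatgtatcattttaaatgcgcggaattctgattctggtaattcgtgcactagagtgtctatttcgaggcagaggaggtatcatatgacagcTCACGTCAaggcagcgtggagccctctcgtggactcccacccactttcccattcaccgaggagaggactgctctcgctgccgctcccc
Both strands were searched. TGACGTCA was present in 1.79% of 32851 mouse windows of this length and in 1 of the 18 member windows. TCACGTCA was present in 0.441% of windows, again in 1 of the 18. The GC box GGGCGG was present in 35.7% of windows and in 7 of the 18. A match of letters is a description and not a bound site.

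The element that REST binds was searched in a simple form, CAGCACC followed by any 2 bases and GGACAG, and was present in 12 windows (0.0365%) and in none of the member windows. Those 12 windows belonged to 11 genes, of which 9 were measured. The 9 measured genes are described below as a set beside Rest that was chosen by sequence. Sites of 4 of them are shown, with the element in capitals. These 4 were picked after the values of their genes were seen.
Hrh3: cgggCAGCACCACGGACAGcgcc
Ttc9b: gcatCAGCACCGGGGACAGcgcg
Lhx3: ccttCAGCACCGCGGACAGcgcc
Osbp2: gcttCAGCACCGCGGACAGcggc
The Hrh3 site reads on the plus strand at chr2:180104572-180104594 and the Ttc9b site on the minus strand at chr7:27653938-27653960. The Lhx3 site reads on the minus strand at chr2:26208272-26208294 and the Osbp2 site on the plus strand at chr11:3774789-3774811.

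None of the 10 transcripts met the threshold of the study, p under 0.05 with a Benjamini-Hochberg adjusted p under 0.20 over all 22180 genes (limma), in R6/1 or in R6/2 eyes. The shares of all genes that met it were small as well, 0.00902% (2 genes) in R6/1 as labelled, 0.234% without WT replicate 4, and 0.0766% (17 genes) in R6/2. A count of 0 among 10 genes is close to what the whole array gives, and does not show that these transcripts are equal between the groups. Groups of arrays did not overlap for 3.13% of all genes in R6/1 as labelled and for 5.23% in R6/2, and for none of the members. Over the 10 transcripts, the 95% intervals of the fold change reached from 0.714 to 1.39 in R6/1 as labelled, from 0.723 to 1.48 without WT replicate 4, and from 0.794 to 1.48 in R6/2. Estimates were above 0 for 4 of 10 transcripts in R6/1 as labelled, with a median log2 fold change of -0.02, beside 0.01 over all genes. Without WT replicate 4 it was 5 of 10, with a median of 0.03. In R6/2 eyes 8 of 10 were above 0 with a median of 0.09, beside 0.02 over all genes. Without the gland-rich WT 9 weeks arrays 6 of 10 were above 0 in R6/2, with a median of 0.04 beside 0.01 over all genes, and the intervals of the fold reached from 0.722 to 1.63.

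**Figure D1:**
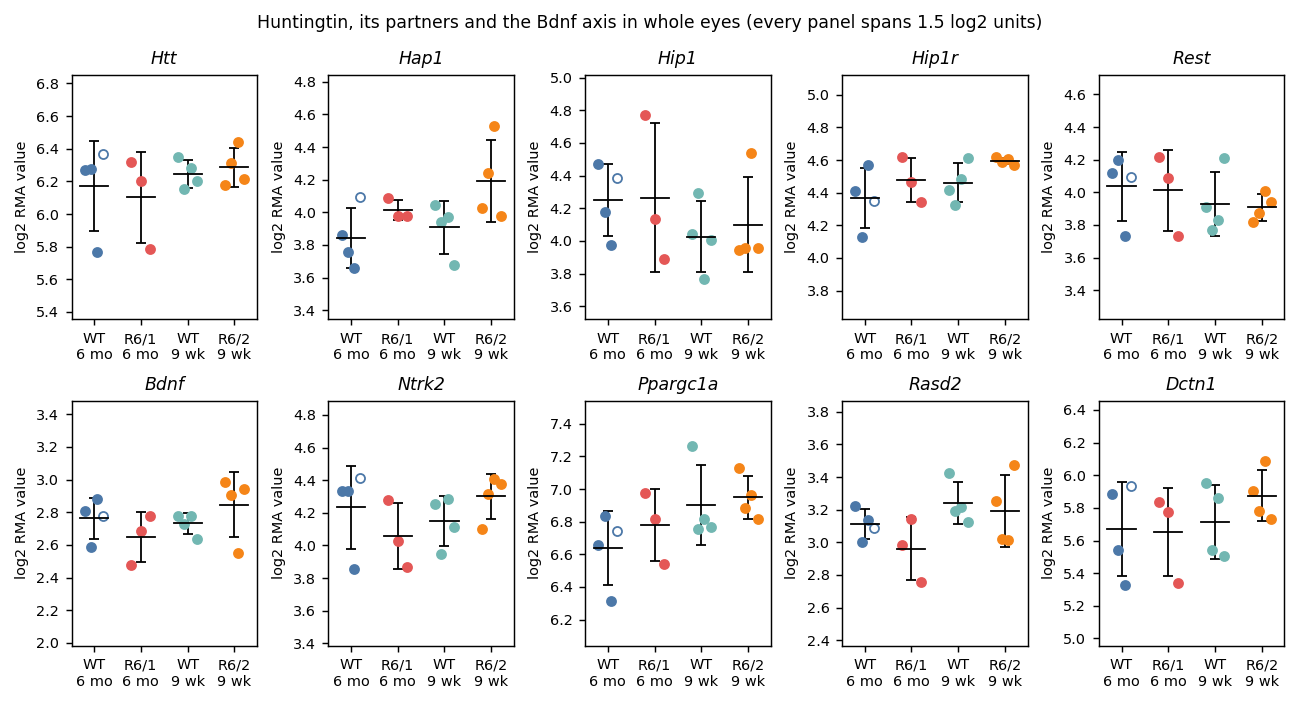
Log2 RMA value of each transcript (y axis, 1.5 log2 units in every panel) on each of the 15 arrays, by group (x axis). Points are arrays, horizontal lines are group means, bars are SD and the open circle is the array labelled WT 6 months replicate 4. Groups overlapped in every panel, and Hap1 in R6/2 eyes had the greatest upward shift of a group mean against its WT group.

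Htt itself read 6.27, 6.28, 5.76 and 6.37 on WT 6 months replicates 1 to 4, and 6.32, 6.20 and 5.79 on R6/1 replicates 1 to 3. It read 6.35, 6.15, 6.28 and 6.20 on the WT 9 weeks arrays and 6.18, 6.31, 6.44 and 6.21 on the R6/2 arrays. The groups overlapped at both ages, and the lowest values at 6 months, 5.76 and 5.79, came from the narrowest arrays in the WT and in the R6/1 group. Its log2 fold change was -0.07 ± 0.15 (SE) in R6/1 as labelled, with a 95% interval from -0.39 to 0.25, and -0.00 ± 0.16 without WT replicate 4. In R6/2 it was 0.04 ± 0.14 (limma adjusted p = 0.972), and the 95% interval of the fold ran from 0.837 to 1.26. Without the gland-rich arrays it was -0.03 ± 0.18, with the sign turned.

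Hap1, which joins huntingtin to the dynactin and kinesin motors, gave the smallest p of the 10. It read 4.05, 3.94, 3.97 and 3.68 on the WT 9 weeks arrays and 4.02, 4.24, 4.53 and 3.98 on the R6/2 arrays. R6/2 replicate 3 was the highest of all 15 arrays, and the lowest R6/2 array lay within the WT range, so the groups overlapped. The log2 fold change was 0.29 ± 0.13 (SE), a fold of 1.22 with a 95% interval from 1.00 to 1.48 (limma adjusted p = 0.627). Without adjustment, p was under 0.05 for Hap1 alone among the 10 members and for 7.81% of all genes. By p it ranked 1643 of 22180. Without WT 9 weeks replicates 2 and 4 the value was 0.19 (limma adjusted p = 1.00).

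At 6 months Hap1 read 3.86, 3.76, 3.66 and 4.09 on WT replicates 1 to 4 and 4.09, 3.98 and 3.98 on the R6/1 arrays. WT replicate 4 was thus level with the highest R6/1 array, while WT replicates 1 to 3 all sat below the R6/1 arrays. The estimate was 0.17 ± 0.14 as labelled, with an interval from -0.13 to 0.47, and 0.25 ± 0.14 without that array, with an interval from -0.05 to 0.56 (limma adjusted p = 1.00), when the groups no longer overlapped. Groups without overlap were found for 5.97% of all genes in that comparison, and for Hap1 alone among the members. Taking the R6/2 change from the R6/1 change gave -0.11 as labelled, with an interval from -0.53 to 0.30.

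The signal of attached skeletal muscle tended to run opposite to Hap1. The mean of 12 skeletal muscle markers spanned 6.77 to 7.31 on WT 9 weeks arrays and 4.92 to 6.18 on R6/2 arrays, and 11 of the 12 markers had p under 0.05, with 1, Actn3, passing the threshold (-1.65, limma adjusted p = 0.198). At 6 months it was 7.10 to 7.65 on WT replicates 1 to 3, 5.27 on WT replicate 4 and 5.56 to 6.56 on R6/1 arrays. Over the 15 arrays Hap1 correlated with this mean at r = -0.63 and with the mean of 10 cone markers at r = -0.54, and arrays of the same group share both. The part of muscle or cone content in the Hap1 values was not tested.

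**Figure D2:**
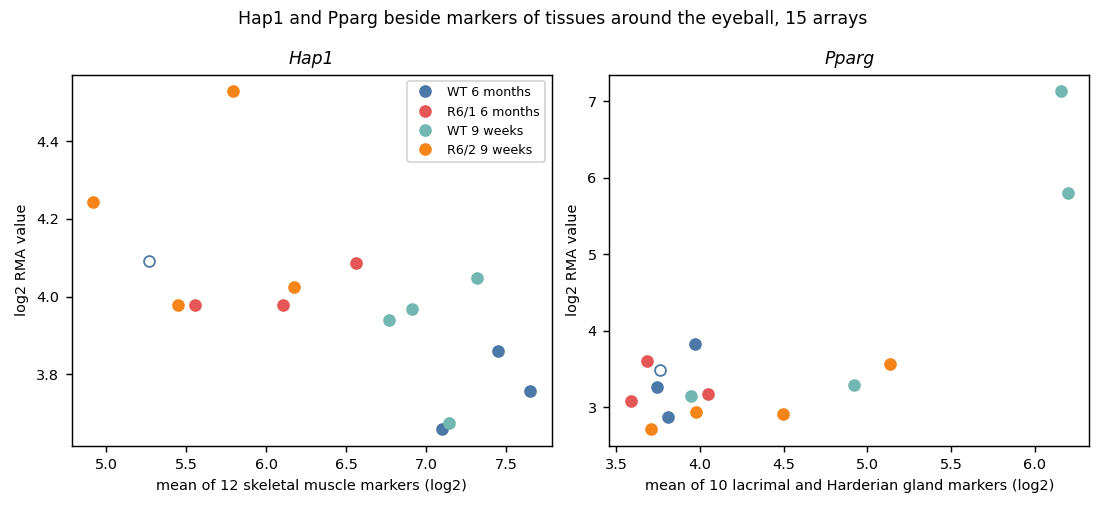
Log2 RMA value of Hap1 against the mean of 12 skeletal muscle markers (left) and of Pparg, a nuclear receptor gene described further on, against the mean of 10 lacrimal and Harderian gland markers (right), with each of the 15 arrays a point coloured by group and the array labelled WT 6 months replicate 4 an open symbol. Hap1 tended to be higher where muscle signal was lower (r = -0.63), and the arrays with Pparg at 5.80 and 7.13 were the gland-rich WT 9 weeks arrays.

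Hip1, an adaptor of clathrin-coated vesicles, was the most variable member, with a span of 1.01 log2 units over the arrays. It ranged from 3.97 to 4.47 on WT 6 months arrays, read 4.77, 4.14 and 3.89 on R6/1 arrays, ranged from 3.77 to 4.29 on WT 9 weeks arrays, and read 3.95, 3.96, 4.54 and 3.96 on R6/2 arrays. R6/1 replicate 1 and R6/2 replicate 3 lay well above the rest of their groups, and the groups overlapped. Estimates were 0.01 ± 0.21 in R6/1 as labelled, 0.06 ± 0.23 without WT replicate 4 and 0.07 ± 0.19 in R6/2 (limma adjusted p = 0.960), or 0.20 ± 0.24 without the gland-rich arrays. The 95% interval of the fold in R6/2 was 0.794 to 1.39, with the lowest lower bound among the 10.

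Hip1r, the related protein that ties clathrin coats to actin, was the least scattered in R6/2 eyes. It read 4.62, 4.59, 4.60 and 4.57 on the R6/2 arrays and 4.42, 4.33, 4.48 and 4.61 on the WT 9 weeks arrays. WT replicates 1 to 3 lay below all R6/2 arrays and WT replicate 4 lay among them. The difference was 0.14 ± 0.10 in R6/2, with an interval from -0.09 to 0.36, and 0.14 ± 0.13 without the gland-rich arrays. In R6/1 it was 0.11 ± 0.11 as labelled and 0.11 ± 0.12 without WT replicate 4.

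Dctn1 encodes p150Glued, the dynactin subunit that HAP1 binds. It read 5.95, 5.54, 5.86 and 5.50 on the WT 9 weeks arrays and 5.90, 5.78, 6.08 and 5.73 on the R6/2 arrays. Both low WT values belonged to the gland-rich arrays, replicates 2 and 4. The log2 fold change in R6/2 was 0.16 ± 0.16 (limma adjusted p = 0.882), and without these replicates it was -0.03 (limma adjusted p = 1.00), so that its direction rested on them. In R6/1 eyes, where values ran from 5.34 to 5.83 against 5.33 to 5.93 in WT, it was -0.02 ± 0.17 as labelled and 0.07 ± 0.18 without WT replicate 4.

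Rest encodes the repressor itself, and its change differed least between the models as labelled. It ranged from 3.73 to 4.20 on WT 6 months arrays, from 3.73 to 4.21 on R6/1 arrays, from 3.77 to 4.21 on WT 9 weeks arrays and from 3.82 to 4.01 on R6/2 arrays. The ranges coincided almost fully at 6 months. Its log2 fold changes were -0.02 ± 0.14 in R6/1, or -0.00 ± 0.16 without WT replicate 4, and -0.02 ± 0.13 in R6/2 (limma adjusted p = 0.986), or 0.04 ± 0.15 without the gland-rich arrays. The difference between the models was -0.00 ± 0.20 with a 95% interval from -0.42 to 0.42.

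Bdnf, the neurotrophin gene that REST represses, read 2.80, 2.59, 2.88 and 2.78 on WT 6 months arrays, and 2.48, 2.69 and 2.78 on R6/1 arrays. It read 2.78, 2.73, 2.78 and 2.64 on WT 9 weeks arrays, and 2.99, 2.91, 2.55 and 2.94 on R6/2 arrays. R6/2 replicates 1, 2 and 4 lay above every WT 9 weeks array, while R6/2 replicate 3 was below them all. The values, from 2.48 to 2.99, lay around the array medians over all 41345 probe sets, which spanned 2.78 to 2.95. The mean of Bdnf exceeded that of 40.7% of the measured genes. No background level is given, so whether Bdnf stood above background is not known here.

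For Bdnf the estimated log2 change was -0.12 ± 0.12 in R6/1 as labelled, -0.11 ± 0.13 without WT replicate 4, and 0.12 ± 0.11 in R6/2 (limma adjusted p = 0.876), or 0.07 ± 0.14 without the gland-rich arrays. The interval of the fold was 0.773 to 1.10 in R6/1 as labelled and 0.919 to 1.28 in R6/2. Ntrk2, its receptor, had estimates of the same signs. It read 4.33, 4.33, 3.86 and 4.41 on WT 6 months arrays and 4.28, 4.03 and 3.87 on R6/1 arrays. It read 4.25, 3.95, 4.28 and 4.11 on WT 9 weeks arrays and 4.10, 4.32, 4.41 and 4.38 on R6/2 arrays. The low values of 3.86 and 3.87 at 6 months were again those of the narrowest arrays, and all groups overlapped. For Ntrk2 the estimates were -0.18 ± 0.15 in R6/1 as labelled, -0.12 ± 0.15 without WT replicate 4 and 0.15 ± 0.13 in R6/2 (limma adjusted p = 0.857). Without the gland-rich arrays the R6/2 value was 0.03 ± 0.16.

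The R6/1 and R6/2 changes were set against each other for both genes. Age and model differ together in this contrast and cannot be told apart. R6/1 less R6/2 was -0.23 ± 0.16 for Bdnf, with an interval from -0.58 to 0.12, and -0.33 ± 0.20 for Ntrk2, with an interval from -0.75 to 0.09, each with limma adjusted p = 1.00. Without WT 6 months replicate 4 these values were -0.23 and -0.27. No gene of the 22180 was called for this difference by limma (0%), and p was under 0.05 without adjustment for 665 genes (3%) and for none of the members. With 1 array left out in turn, the value for Ntrk2 ran from -0.45 without WT 6 months replicate 3, a narrow array, to -0.23 without R6/1 replicate 3, the other. For Bdnf it ran from -0.33 without R6/2 replicate 3 to -0.15 without R6/1 replicate 1. Without the gland-rich arrays the values were -0.21 for Ntrk2 and -0.18 for Bdnf, and each of these had limma adjusted p of 0.688 or more.

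Ppargc1a, the coactivator gene, read 6.66, 6.84, 6.32 and 6.75 on WT 6 months arrays and 6.98, 6.82 and 6.54 on R6/1 arrays. It read 7.26, 6.75, 6.82 and 6.77 on WT 9 weeks arrays and 7.13, 6.88, 6.97 and 6.82 on R6/2 arrays. The groups overlapped at both ages, with WT 9 weeks replicate 1 the highest array of all. Estimates were 0.14 ± 0.16 in R6/1 as labelled, 0.18 ± 0.17 without WT replicate 4 and 0.05 ± 0.14 in R6/2 (limma adjusted p = 0.967). Without the gland-rich arrays the R6/2 value was -0.09 ± 0.18, with the sign turned. The 95% interval of the fold began at 0.876 in R6/1 as labelled, and in R6/2 at 0.835 with the gland-rich arrays and at 0.722 without them. Over the 15 arrays Ppargc1a correlated at r = 0.83 with the mean of 9 corneal and conjunctival markers. Its r was 0.63 with the lens marker mean and -0.02 with the muscle marker mean. For the other members r with the corneal mean ran from -0.22 (Bdnf) to 0.86 (Htt), with Dctn1 at 0.72. That mean was lowest on the narrow arrays, WT 6 months replicate 3 (6.21) and R6/1 replicate 3 (6.32), where Ppargc1a was also lowest. The part of these tissues or of array spread in the Ppargc1a values was not tested.

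Rasd2, known for its high level in striatum, read 3.22, 3.13 and 3.09 on WT 6 months replicates 1, 3 and 4, and less on replicate 2. It read 2.98, 3.14 and 2.76 on R6/1 arrays and ranged from 3.13 to 3.43 on WT 9 weeks arrays and from 3.02 to 3.48 on R6/2 arrays. The lowest value belonged to R6/1 replicate 3, a narrow array. Its log2 fold change was -0.15 ± 0.13 in R6/1 as labelled, -0.16 ± 0.14 without WT replicate 4 and -0.05 ± 0.12 in R6/2 (limma adjusted p = 0.959), or -0.13 ± 0.15 without the gland-rich arrays. Like Bdnf, Rasd2 was below the median gene in mean level, and the other 8 members were above it.

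**Figure D3:**
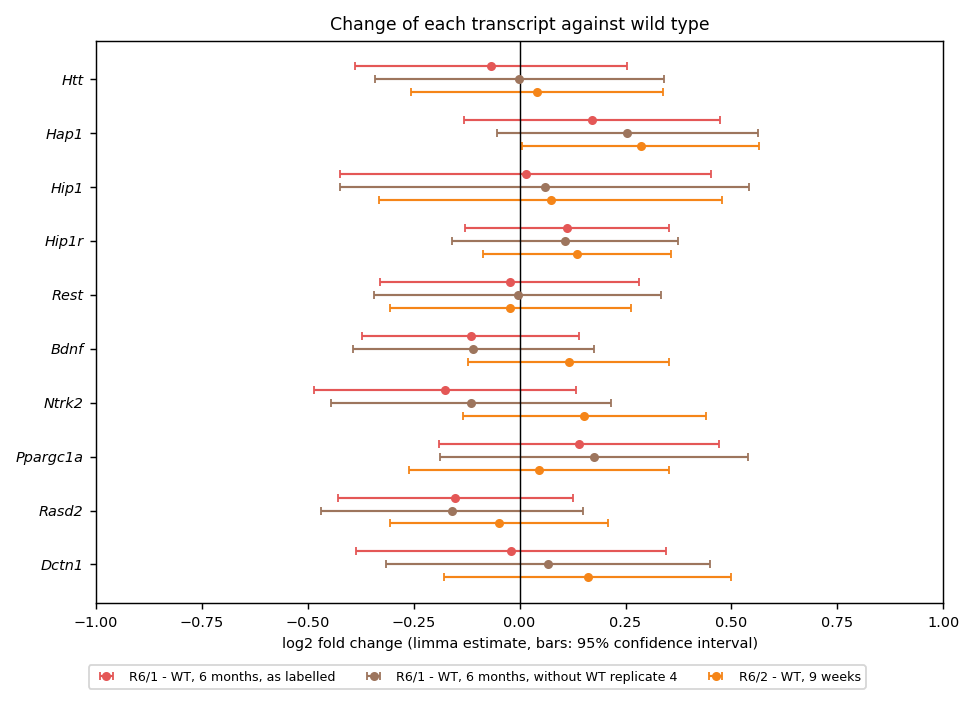
Log2 fold change against wild type (x axis) of each transcript (y axis), for R6/1 as labelled, R6/1 without WT 6 months replicate 4, and R6/2. Points are limma estimates and bars are 95% confidence intervals. Every interval includes 0 except that of Hap1 in R6/2, whose lower bound is 0.01.

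The WT group at 6 months was set against that at 9 weeks. These mice were littermates of different lines, so age and cohort cannot be told apart. None of the 10 members was called. The share of all genes called was 9.57% (2122, of which 896, or 4.04% of all genes, were higher and 1226, or 5.53%, lower at 6 months), or 4.97% without WT 6 months replicate 4. A count of 0 among 10 genes is close to what these shares give, and does not show equal levels in both groups. The smallest p among the members was that of Ppargc1a, with a log2 fold change of -0.26 ± 0.14 at 6 months against 9 weeks (limma adjusted p = 0.400), or -0.30 ± 0.16 without that array. Hip1 followed with 0.22 ± 0.19 (limma adjusted p = 0.632), or 0.18 ± 0.21 without WT 6 months replicate 4. The mean of 10 lens markers also differed, at 7.88 to 8.51 on WT 9 weeks arrays and 6.49 to 7.06 on WT 6 months arrays. Of the 10 lens markers 5 were called lower at 6 months. The part of lens content in these values was not tested. Without the gland-rich arrays the log2 fold change of Ppargc1a was -0.40 (limma adjusted p = 0.467) and that of Hip1 was 0.35 (limma adjusted p = 0.698).

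The members varied together across arrays in a way that cut across the groups. Htt, Ppargc1a, Dctn1, Rest and Ntrk2, 5 of the 10, had their 2 lowest values on the same pair of narrow arrays, WT 6 months replicate 3 and R6/1 6 months replicate 3. Over 15 arrays their correlation with the interquartile range of the array was r = 0.89 for Htt, 0.65 for Ppargc1a and for Dctn1, 0.63 for Rest and 0.62 for Ntrk2. A correlation over 0.5 was found for 23.1% of all genes, a share taken over genes of every level. These 5 members all lay above the median gene in mean level, and the share among genes of like level was not taken. Without the pair the correlations were 0.30 for Htt, -0.07 for Ppargc1a, 0.00 for Dctn1, 0.40 for Rest and -0.06 for Ntrk2. At 6 months 1 narrow array lay in each group.

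**Figure D4:**
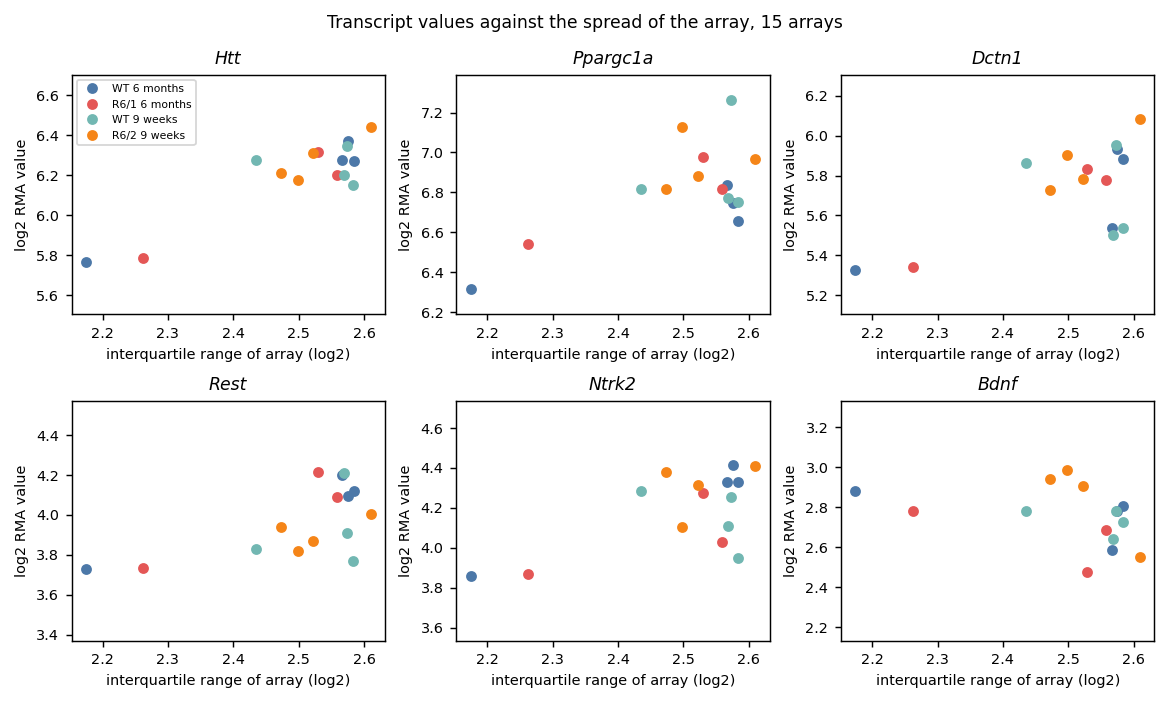
Log2 RMA value of 6 transcripts (y axis, 1.2 log2 units in every panel) against the interquartile range of all probe sets on the array (x axis, log2). Points are the 15 arrays, coloured by group. Both arrays at the far left have the lowest values of every transcript shown but Bdnf.

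Pairs of members were described by their correlation over the 15 arrays, and again over 13 without the narrow pair. Htt moved most closely with Ntrk2 (r = 0.86, and 0.76 without the pair) and with Dctn1 (0.84 and 0.68). Hap1 moved with its binding partner Dctn1 (0.70 and 0.74) and with Htt (0.55 and 0.68). Bdnf ran opposite to Rest (-0.64 and -0.65) and to Hip1 (-0.65 and -0.64), but whether its values stood above background is not known here. Ppargc1a with Dctn1 dropped from 0.71 to 0.43. These arrays share normalization, tissue content and groups, and the values describe the arrays only.

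The genes whose values most resembled each member over the 15 arrays were taken among the other genes, 11089 or 11090, whose mean exceeded that of the median gene. For Htt they were Ap1b1, a clathrin adaptor subunit gene (r = 0.95), Peli2 and Adgrl1. For Dctn1 they were Mllt6 (0.97), Whrn and Syt11. For Hap1 they were R3hdml (0.93), the synaptic vesicle gene Syngr3 and Entpd7. For Ntrk2 the nearest was the neuronal RNA-binding protein gene Elavl3 (0.90), for Ppargc1a Tbc1d7 (0.93), for Rest C1qbp (0.91), for Hip1 Akap2 (0.90), for Rasd2 the natriuretic peptide gene Nppa (0.87), for Bdnf Gm15753 (0.83) and for Hip1r Xxylt1 (0.83).

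The wider pathways were read through 11 gene lists chosen by function, of which 226 of 258 genes were measured, with no member among them. None of the 226 genes was called in R6/1 or in R6/2, beside the 0.00902% and 0.0766% of all genes given above. In R6/1 as labelled 10 of the 226 had p under 0.05 without adjustment, where 3.1% of all genes did. In R6/2 it was 27 of 226, where 7.81% of all genes did, and 16 of 226 without WT 9 weeks replicates 2 and 4, where 4.3% did. List genes are named below where their unadjusted p was under 0.05, and their limma adjusted p in R6/1 was 0.850 for Calb1 and 1.00 for the others. Medians of the lists spanned -0.08 to 0.05 in R6/1 as labelled, -0.12 to 0.09 without WT replicate 4, where 8 of 226 had p under 0.05, and -0.17 to 0.21 in R6/2. Without the gland-rich arrays the R6/2 medians spanned -0.17 to 0.07. List values below are as labelled and with all arrays unless stated.

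**Figure D5:**
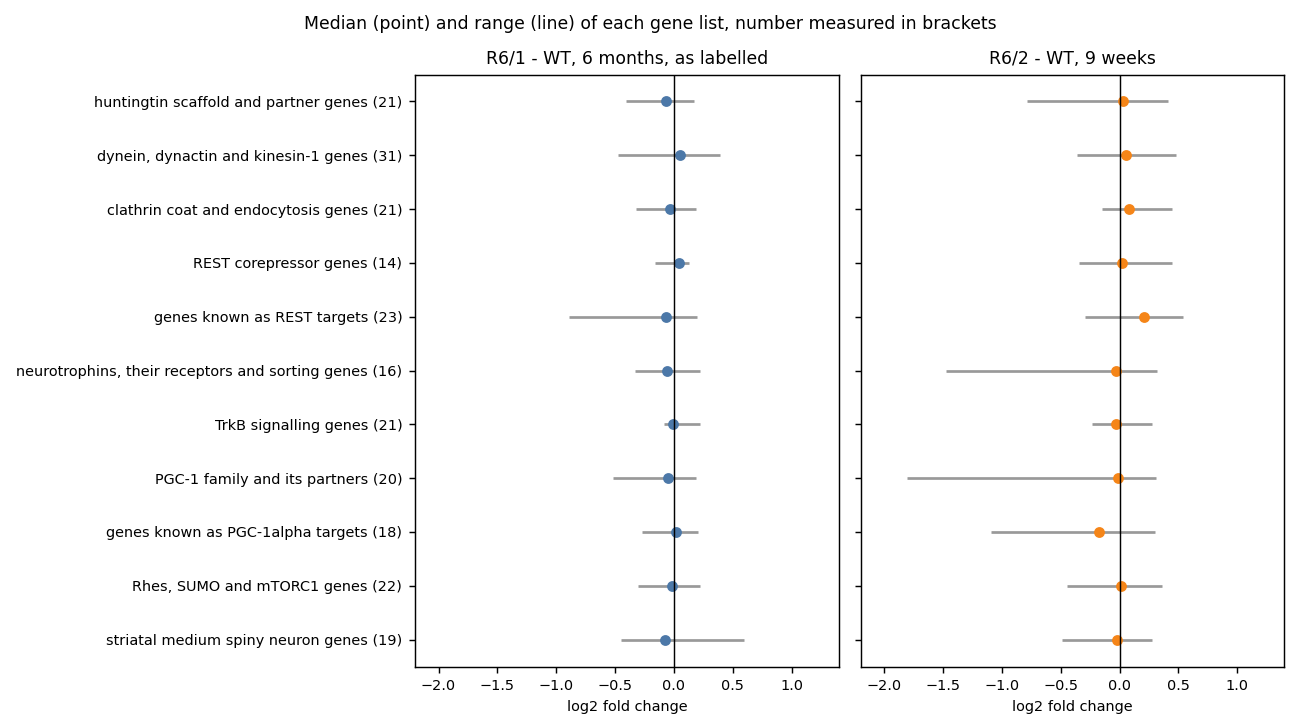
Log2 fold change (x axis) of 11 gene lists (y axis, number measured in brackets) in R6/1 as labelled (left) and R6/2 (right). Points are list medians and lines run from the lowest to the highest gene. In R6/2 the REST target list lies farthest right, at 0.21, and the PGC-1alpha target list farthest left, at -0.17.

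Among 21 other huntingtin partners, the lowest p-values in R6/2 belonged to Trip10, whose product CIP4 binds huntingtin (log2 fold change -0.29, limma adjusted p = 0.535), and to Zdhhc17, the palmitoyl transferase HIP14 (0.35, adjusted p = 0.554). In R6/1 the lowest belonged to Dlg4, the synaptic scaffold PSD-95 (-0.41). Of 31 dynein, dynactin and kinesin-1 genes, Capza1 (0.46, adjusted p = 0.409) and the mitochondrial motor adaptor gene Trak2 (0.48, adjusted p = 0.477) had the smallest p in R6/2, and Dynlrb2 (0.39) and Nde1 (0.32) in R6/1. The median of this list was 0.05 in R6/1 and 0.06 in R6/2, with 22 of 31 genes above 0 in R6/2. Of 21 clathrin coat and endocytosis genes, Sh3gl2 (endophilin A1) read 0.44 higher (adjusted p = 0.436) and Amph 0.40 higher (adjusted p = 0.581) in R6/2. In R6/1 as labelled Ap2a2 had -0.32, while without WT replicate 4 no gene of this list had p under 0.05.

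Genes known as targets of REST, which encode neuronal proteins, had a median of 0.21 in R6/2, with 18 of 23 above 0 and 6 with p under 0.05 but none called. The synaptic vesicle gene Syp had 0.43 (adjusted p = 0.513) and Stmn3, of the stathmin family, 0.41 (adjusted p = 0.535). The mean of this list was lowest on WT 9 weeks replicate 4 (4.78), where the mean of 10 glial markers was also lowest (6.00), and spanned 5.27 to 5.42 on R6/2 arrays. Without WT 9 weeks replicates 2 and 4 the median was 0.07, with Syp at 0.29 and Stmn3 at 0.26. Over 15 arrays Syp correlated at r = -0.67 with the muscle marker mean and at 0.61 with the glial marker mean, and Stmn3 at -0.52 and 0.76. The part of muscle or glial content in these values was not tested. In R6/1 the median was -0.07, and Calb1, the calcium buffer of horizontal and other neurons, had -0.89 (adjusted p = 0.850), or -0.93 (adjusted p = 0.646) without WT replicate 4. Calb1 correlated over 15 arrays with the means of rod markers (r = 0.79) and bipolar cell markers (r = 0.86), and the part of retinal content in its value was not tested. Of 14 corepressor genes that work with REST, Hdac1 alone had p under 0.05, at 0.44 in R6/2 (adjusted p = 0.535).

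The 9 measured genes with the REST element in their start windows gave medians of -0.12 in R6/1 as labelled, with 1 of 9 above 0 (2 of 9 without WT replicate 4), and 0.04 in R6/2, with 5 of 9 above 0. None was called. In R6/2 the tetratricopeptide gene Ttc9b had 0.38 (adjusted p = 0.436) and the histamine receptor gene Hrh3 -0.47 (adjusted p = 0.535), so that the 2 with the smallest p had opposite signs. The homeobox gene Lhx3 had -0.07 and the oxysterol-binding protein gene Osbp2 -0.09. In R6/1 Lhx3 had 0.05 and Osbp2 -0.30. Over the 15 arrays the mean log2 value was 2.47 for Ttc9b and 2.52 for Lhx3, under the array medians of 2.78 to 2.95. Whether these genes stood above background is not known here.

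In the neurotrophin list, of 16 genes, Cadps2, which primes dense-core vesicles for release of BDNF, gave -1.47 in R6/2 (adjusted p = 0.574). Its WT 9 weeks values ran from 2.77 to 6.50 and correlated with the gland marker mean at r = 0.86 over 15 arrays. Its value was 0.07 without WT 9 weeks replicates 2 and 4. Cpe, a sorting receptor for proBDNF, had 0.32 (adjusted p = 0.618) in R6/2. Without the gland-rich arrays no gene of the neurotrophin list had p under 0.05, and its median moved from -0.03 to -0.12. Of 21 genes of TrkB signalling, Pik3ca alone had p under 0.05, at 0.27 in R6/2 (adjusted p = 0.535), and the list medians were -0.00 in R6/1 and -0.03 in R6/2. Without the gland-rich arrays the R6/2 median was 0.07, with 16 of 21 above 0 and none with p under 0.05.

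Pparg, the nuclear receptor after which PGC-1alpha is named, followed the same arrays as Cadps2. It read 3.29, 5.80, 3.14 and 7.13 on the WT 9 weeks arrays and 2.94, 2.72, 2.91 and 3.56 on the R6/2 arrays. WT replicates 2 and 4 alone stood above the R6/2 range by over 2 log2 units, and the log2 fold change was -1.81 (adjusted p = 0.535) with them and -0.18 without them. Its correlation with the gland marker mean was r = 0.83. Of 18 genes known as PGC-1alpha targets, Pdk4 had -1.09 (adjusted p = 0.558) and Ucp3 -0.80 (adjusted p = 0.606) in R6/2, both expressed in muscle. Without the gland-rich pair they were -0.43 and -0.17, and the median of the list moved from -0.17 to -0.01. Pdk4 correlated with the muscle marker mean at r = 0.66 and Ucp3 with the gland marker mean at r = 0.69. In R6/1 the estrogen-related receptor gene Esrrb had -0.52.

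Of 22 genes around Rhes, SUMO and mTORC1, the SUMO ligase gene Pias3 (-0.35) and Rasd1, the closest relative of Rasd2 (-0.45), had the smallest p in R6/2, each with adjusted p = 0.535. In R6/1 it was Icmt, a methyl transferase of prenylated proteins (-0.30). Genes that mark striatal medium spiny neurons, of which 19 were measured in the eye, had medians of -0.08 in R6/1 and -0.02 in R6/2. In R6/1 as labelled the cannabinoid receptor gene Cnr1 (-0.33) and the dopamine receptor gene Drd2 (-0.45) had the smallest p. Without WT replicate 4 only 1 of the 19 had p under 0.05, and the median was -0.12. In R6/2 no gene of that list had p under 0.05 with all arrays. Without the gland-rich arrays 2 had p under 0.05, 6 of 19 were above 0 and the median was -0.17, beside 0.01 over all genes. None was called.

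Between the WT groups, whose age and cohort cannot be told apart, 29 of the 226 list genes were called, 17 higher and 12 lower at 6 months. The share of all genes called was 9.57%. Pafah1b1, the dynein regulator LIS1, was higher at 6 months by 0.55 (adjusted p = 0.0238) and the granin gene Scg2 by 0.59 (adjusted p = 0.0387). Cytochrome c (Cycs) was higher by 0.51 (adjusted p = 0.0920) and the glutamate receptor gene Gria2 by 0.68 (adjusted p = 0.0762). The catalase gene Cat was lower by 1.70 (adjusted p = 0.0820) and the motor adaptor gene Trak1 by 0.70 (adjusted p = 0.0746). Furin, a protease that cleaves proneurotrophins, was lower by 0.97 (adjusted p = 0.111). The other 13 genes called higher were Ahi1, Capza1, Cltc, Cpe, Dctn3, Gnb1, Homer1, Idh3a, Kif5b, Kif5c, Pik3ca, Rgs9 and Zdhhc17, at 0.24 to 0.54, and the other 9 called lower were Ap2s1, Dynlrb1, Epn1, Fntb, Ntrk3, Plcg2, Sirt3, Trip10 and Tubb3, at -0.62 to -0.31. Without WT 6 months replicate 4, 8 were called higher and 7 lower, beside 4.97% of all genes. Without the gland-rich WT 9 weeks arrays 4 were called, 2 in each direction, beside 1.65% of all genes, among them Pafah1b1 (0.52, adjusted p = 0.170) and Cycs (0.62, adjusted p = 0.113), while Cat had -0.58 (adjusted p = 0.387) and Furin -0.37 (adjusted p = 0.643).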

How the data were processed

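The authors hybridised biotin-labelled cDNA made from RNA of mouse eyes to Affymetrix Mouse Gene 2.1 ST arrays and deposited log2 expression values after RMA background correction, normalization and summarization. The methods name the WT Plus labelling kit, the labels another, and a genome build is not given in the sources used here. The number of arrays limits the precision. Of 41345 probe sets, 23521 had 1 gene symbol, 1820 had several and 16004 had none. A gene with several probe sets was represented by that of highest mean over 15 arrays, which gave 22180 genes.

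All genes were fitted together in limma 3.58.1 (R 4.3.3), as 1 mean per group with moderated variances, after the code was tested on simulated data. The contrasts set each R6 line beside WT of its age, 1 line's change beside the other's, and the older WT group beside the younger. Calls needed p under 0.05 together with an adjusted p (Benjamini-Hochberg) under 0.20. Members and lists were chosen with earlier results of these data known. Named list genes are the called ones, and of the 2 with the lowest p per list and model those with p under 0.05. For likeness, the 3 nearest genes per member were taken and at least 1 is named. Motifs were searched in RefSeq windows of GRCm38.p6 on both strands, and the 4 REST element sites printed were picked after the values of their genes were seen.

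Deviations from the group means correlated at 0.37, 0.33 and 0.72 between arrays of the same replicate number at 6 months, against -0.53 to 0.29 for other numbers, and at -0.25 to 0.21 at 9 weeks. The labels name no pairing. The value of 0.72 was that of the narrow arrays, both replicate 3. Among the other arrays at 6 months, different numbers correlated at 0.23 to 0.29. Whether the numbers pair can therefore not be told from these values, and replicate number entered as a block in an alternative. Other alternatives covered filters, thresholds, probe sets, normalization, weights and left-out arrays.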

Additional observations from a re-analysis of the deposited data

Results flagged for a closer look

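Within 30 groups of 4 arrays of the 10 members, 4 had 1 array that stood far from the other 3 by Dixon's test. Chance flags about 1 in 20 independent groups. These groups share arrays and are not independent, so the count cannot be judged against that rate. Htt at 5.76 and Ntrk2 at 3.86 were the lowest values of the WT 6 months group, both on replicate 3, the array with the narrowest interquartile range. Hip1 at 4.54 on R6/2 replicate 3 was the highest of its group, on the array that also had the highest Hap1, Htt and Dctn1 values. Ppargc1a at 7.26 on WT 9 weeks replicate 1 was the highest of its group. No cause of these values was tested.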

How the results depend on the processing

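No member was called under any of 30 alternatives in the comparisons each could give. The stricter threshold could not add a call. Several other settings left the estimates of a comparison unchanged, so the alternatives are not independent checks. The variance filter kept 4 of the 10 members and the filter on dim genes 8, the fits of 1 age gave neither the difference nor the age comparison, and the block did not give age. Over 1138 values of a member under an alternative, 21 had p under 0.05 without adjustment, most of them Hap1 in R6/2, and the smallest adjusted p was 0.204, for Rest with age under array weights. The sign changed in 94 values of 22 of the 40 results, with values between -0.24 and 0.14. In 1 of these the value as labelled exceeded its standard error, Dctn1 in R6/2, which was -0.032 without the gland-rich arrays. Replicate number as a block gave Hap1 in R6/2 a limma adjusted p = 0.361, gave 62, 109 and 0 genes called in R6/1, R6/2 and the difference, changed no call of a member, and could not be fitted for age.

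The number of genes called was less stable than the members. In R6/1 (2 as labelled) it was 6 among the more variable genes, 0 with 1 age in the fit, 24 with array weights, 0 without dim genes, 51 with WT replicate 4 counted as R6/1 and 54 without it and the narrow arrays, and 0 to 52 with 1 array left out, the highest without WT replicate 4. In R6/2 (17) it was 0 at adjusted p under 0.05, 51 with 1 age in the fit, 6 with trend and robust moderation, 70 after quantile normalization, 1835 with array weights, 169 with the interquartile range as covariate, 51 with WT replicate 4 counted as R6/1, 59 without the narrow arrays, 120 without these and WT replicate 4, 2 without the gland-rich arrays, and 0 to 902 with 1 array left out, the highest without WT 9 weeks replicate 3. The difference (0, with 665 genes at p under 0.05) had 1 call without the narrow arrays and WT replicate 4, and 0 to 1 with 1 array left out. With age (2122) it was 234 at adjusted p under 0.05, 3830 after quantile normalization, 4192 with array weights, 4457 with the interquartile range as covariate, 1353 with WT replicate 4 counted as R6/1, 4008 without the narrow arrays, 366 without the gland-rich arrays, and 582 to 3268 with 1 array left out, the lowest without WT 9 weeks replicate 2 and the highest without WT 6 months replicate 3. The cause was not tested. The settings without narrow or gland-rich arrays were chosen after seeing the data. Precision is limited by 3 or 4 pools a group and, for Bdnf and Rasd2, by values near the array medians.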
